A study of Mus musculus with 6 samples.

Results

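The genes described here encode 3 Janus kinases (*Jak1*, *Jak2* and *Jak3*) and 6 signal transducers and activators of transcription (*Stat2*, *Stat3*, *Stat4*, *Stat5a*, *Stat5b* and *Stat6*). They were taken by symbol from the gene names of a count matrix of 35602 genes and of 2 single-library tables of 34714 genes. All 9 were found in each table, and all 9 were among the 16269 genes of the matrix that passed the filter on low counts.

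The study measured mRNA by sequencing in CD4+ T cells from mouse spleen that were stimulated with anti-CD3/CD28 antibodies, and asked how the transcriptome differs when MAPK13 is inhibited. One group received the vehicle DMSO and the other MAPK13-IN-1, a small-molecule inhibitor of the kinase MAPK13, with 3 libraries in each. For replicates 2 and 3 of both groups, from wild-type mice, the labels give addition after day 1 of culture and an inhibitor dose of 17.1 µM, while the design text gives 72 h in the presence of inhibitor or vehicle. Replicates 2 and 3 were made with poly-T beads and are present as counts, with totals of 26874805 and 28487403 for DMSO and 33854760 and 32617702 for MAPK13-IN-1. Replicate 1 of each group was made with a stranded mRNA kit, its labels give no genotype, dose or day of addition, and its values appear to be FPKM (fragments scaled by gene length and by depth), a unit inferred from the values. The depth behind these FPKM values is unknown. The libraries of replicate 1 therefore entered no test, and each of their ratios has no replicate check. Nothing states that replicates 2 and 3 came from separate cultures or animals, so the p-values below measure only the spread between these libraries, which may be technical.

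Janus kinases sit on the intracellular tails of cytokine receptors that have no kinase activity of their own. When a cytokine brings receptor chains together, the kinases phosphorylate the receptor and then STAT proteins, which dimerize, enter the nucleus and bind DNA. In activated CD4+ T cells this route carries the signals of interleukin-2 and the cytokines that steer helper differentiation, and SOCS proteins, among its target genes, damp it.

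Of the 9 genes, 4 were higher and 4 were lower in MAPK13-IN-1-treated cells at an adjusted p under 0.05, using the quasi-likelihood test of edgeR and the Benjamini-Hochberg method over all genes tested. Of all 16269 genes, 10374 (63.8%) passed, 31.5% higher and 32.3% lower, so calls were common throughout the transcriptome. The median log2 fold change was −0.04 over the 9 genes and 0.01 over all genes tested, and the median of its absolute size was 0.59 and 0.52. *Jak1*, *Stat2*, *Stat3* and *Stat4* were the genes that rose, and *Jak2*, *Jak3*, *Stat5a* and *Stat6* those that fell. The values of the groups did not overlap for 8 of the 9 genes, against 83.0% of all genes tested. RNA here comes from whole cultures, so fewer cells of a type and less RNA per cell cannot be told apart.

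**Figure D1:**
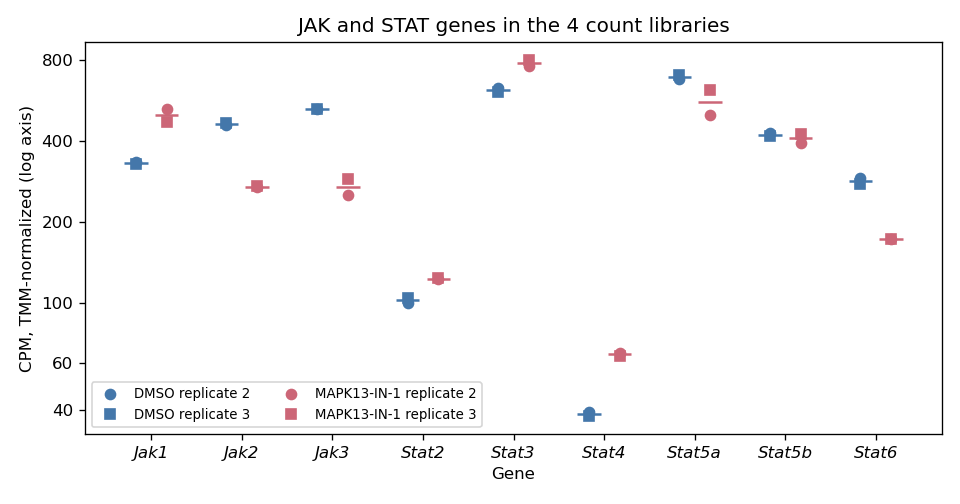
Level of each gene in CPM (counts scaled by library size with TMM normalization, log axis) in the DMSO and MAPK13-IN-1 libraries of replicates 2 and 3; points are libraries and short lines are group means. The groups are apart for 8 genes and overlap for *Stat5b*, at 426 and 415 CPM with DMSO and 393 and 425 CPM with MAPK13-IN-1.

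*Jak3*, the kinase that pairs with the common gamma chain of the interleukin-2 receptor family, had the largest change of the 9 in the count libraries with TMM normalization, though with library totals alone *Stat4* changed more (0.87, against −0.83 for *Jak3*). Its level was 522 CPM in both DMSO libraries, and 252 and 287 CPM in MAPK13-IN-1 replicates 2 and 3. Both treated libraries were below both controls, by far more than the spread within a group. The fitted log2 fold change came to −0.95 with a standard error of 0.0649 (edgeR quasi-likelihood fit, Benjamini-Hochberg adjusted p = 8.08e-07), a 1.94-fold lower level.

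*Jak2*, which serves receptors such as those of interleukin-12, interleukin-3 and interferon-gamma, was at 456 and 466 CPM with DMSO and at 269 and 271 CPM with MAPK13-IN-1. The libraries of each group lay close together and the groups were well apart. On the log2 scale the fold change was −0.77 with a standard error of 0.0504 (edgeR quasi-likelihood fit, Benjamini-Hochberg adjusted p = 6.32e-07).

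*Jak1*, the partner of JAK3 at common gamma chain receptors, went the other way. It was at 334 and 328 CPM with DMSO, and at 526 and 471 CPM with MAPK13-IN-1. Both treated libraries were above both controls. This gave a log2 fold change of 0.59 with a standard error of 0.0610 (edgeR quasi-likelihood fit, Benjamini-Hochberg adjusted p = 1.37e-05).

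The proportions of the kinases differed between the groups as well. Per kilobase of exon, *Jak1* made up 19.7% and 19.2% of the 3 kinases' summed level in the DMSO libraries. In the MAPK13-IN-1 libraries it made up 42.0% and 37.7%. The size of each share depends on the lengths used, here exon unions of 7227 bases for *Jak1* and 5030 for *Jak2*. A single transcript of each is 4906 and 5030 bases. *Jak3* made up 41.6% and 41.4% with DMSO, and 27.2% and 31.1% with MAPK13-IN-1. *Jak2* made up 38.7% and 39.3% with DMSO, and 30.8% and 31.2% with MAPK13-IN-1. The share of *Jak1* was thus higher, and those of *Jak2* and *Jak3* lower, in both treated count libraries. The sum itself was 234 and 236 CPM per kilobase with DMSO, and 173 in both libraries with MAPK13-IN-1. For replicate 1 the share of *Jak1* was 17.6% with DMSO and 20.4% with MAPK13-IN-1, and that of *Jak2* 50.8% and 47.0%, the same directions by smaller amounts. The share of *Jak3* there was 31.7% and 32.6%, and the summed level 263 and 282 FPKM, both slightly higher with the inhibitor. These proportions are descriptions: with 2 libraries a group an exact two-sided permutation test cannot go below p = 0.333.

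*Stat4*, the factor activated by interleukin-12 in T helper 1 differentiation, had the lowest level of the 9 in the count libraries, also per length, and the largest rise there. It was at 39.2 and 38.0 CPM with DMSO and at 65.2 and 63.8 CPM with MAPK13-IN-1. The groups did not overlap, and within each group the libraries differed little. The fitted log2 fold change came to 0.74 with a standard error of 0.0716 (edgeR quasi-likelihood fit, Benjamini-Hochberg adjusted p = 8.82e-06).

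*Stat3*, which transmits interleukin-6 and interleukin-21 signals, was at 628 and 607 CPM with DMSO and at 758 and 796 CPM with MAPK13-IN-1. Both treated libraries were higher. On the log2 scale the fold change was 0.33 with a standard error of 0.0501 (edgeR quasi-likelihood fit, Benjamini-Hochberg adjusted p = 0.000206).

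*Stat2*, which acts with IRF9 downstream of type I interferon receptors, was at 99.8 and 104 CPM with DMSO and at 122 and 124 CPM with MAPK13-IN-1. The groups were apart, though by less than for the other genes that rose. This gave a log2 fold change of 0.27 with a standard error of 0.0600 (edgeR quasi-likelihood fit, Benjamini-Hochberg adjusted p = 0.00267). Without DMSO replicate 2 it was 0.22 and no longer passed (edgeR, Benjamini-Hochberg adjusted p = 0.0790, with a range over the alternatives of 2.82e-06 to 0.0790).

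*Stat6*, the factor of interleukin-4 and interleukin-13 signalling, was at 290 and 277 CPM with DMSO, and at 173 CPM in both libraries with MAPK13-IN-1. The treated libraries were below both controls. The fitted log2 fold change came to −0.71 with a standard error of 0.0545 (edgeR quasi-likelihood fit, Benjamini-Hochberg adjusted p = 1.74e-06).

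*Stat5a* and *Stat5b* encode closely related factors of interleukin-2 signalling. *Stat5a* was at 678 and 701 CPM with DMSO, and at 500 and 618 CPM with MAPK13-IN-1. The groups did not overlap, but the treated libraries were farther apart from each other than those of any other of the 9 genes, with an SD of 83.2 CPM. On the log2 scale the fold change was −0.30 with a standard error of 0.0826 (edgeR quasi-likelihood fit, Benjamini-Hochberg adjusted p = 0.00826). It was −0.16 without MAPK13-IN-1 replicate 2 and −0.47 without MAPK13-IN-1 replicate 3. It no longer passed when libraries were scaled by their totals alone (−0.18, edgeR, Benjamini-Hochberg adjusted p = 0.0653).

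*Stat5b* was at 426 and 415 CPM with DMSO and at 393 and 425 CPM with MAPK13-IN-1. The groups overlapped, and it did not pass the test. Its fitted change on the log2 scale was −0.04 with a standard error of 0.0553 (edgeR quasi-likelihood fit, Benjamini-Hochberg adjusted p = 0.545), and its sign changed with the scaling and with the libraries used. Per kilobase, *Stat5a* made up 55.3% and 56.8% of the *Stat5a* and *Stat5b* sum in the DMSO libraries, and 49.7% and 53.0% in the MAPK13-IN-1 libraries. The share was lower in both treated count libraries. Its size rests on exon unions of 7133 bases for *Stat5a* and 5539 for *Stat5b*. A single transcript of each is 3888 and 5213 bases, so which of the genes leads is not settled here. The replicate 1 pair went the other way, at 60.7% with DMSO and 74.4% with MAPK13-IN-1. Assignment of reads between *Stat5a* and *Stat5b* is uncertain in every library. Of the 50-base windows of the longest *Stat5a* transcript, 15.8% occur also in transcripts of *Stat5b* (6.99% at 100 bases, 4.68% at 150). The read length is not given in the sources used here, and how the counting treated such reads is not given in the sources used here.

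Levels can be ordered between genes only per length, and the order depends on the length used. Here it was the union of all annotated exons, 7133 bases for *Stat5a* and 5030 for *Jak2*. A single transcript of each is 3888 and 5030 bases, and an order by transcript length was not made. In the DMSO libraries the means were 97.6 CPM per kilobase for *Jak3*, 96.7 for *Stat5a*, 91.7 for *Jak2*, 75.9 for *Stat5b*, 64.8 for *Stat3*, 64.5 for *Stat6*, 45.8 for *Jak1*, 17.2 for *Stat2* and 9.97 for *Stat4*. On these lengths the ranges of *Jak3* and *Stat5a* overlapped, as did those of *Stat3* and *Stat6*. Other lengths could change both the order and these overlaps. With MAPK13-IN-1 the mean levels were 81.6 CPM per kilobase for *Stat3*, 78.3 for *Stat5a*, 73.8 for *Stat5b*, 69.0 for *Jak1*, 53.6 for *Jak2*, 50.4 for *Jak3*, 39.3 for *Stat6*, 20.8 for *Stat2* and 16.6 for *Stat4*. There the ranges of neighbours overlapped from *Stat3* to *Jak1* and between *Jak2* and *Jak3*.

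The replicate 1 pair gave another picture for the genes that fell. *Stat4* was listed at 10.5 FPKM with DMSO and 37.8 with MAPK13-IN-1, *Stat2* at 15.2 and 24.1, *Stat3* at 62.4 and 80.9, and *Jak1* at 46.2 and 57.5. Each of the 4 genes that rose in the count libraries was thus also higher with the inhibitor here. Of the 4 that fell, *Jak3* was at 83.4 FPKM with DMSO and 92.0 with MAPK13-IN-1, *Stat6* at 46.4 and 54.7, and *Stat5a* at 102 and 198. All of these were higher with the inhibitor, against the direction of replicates 2 and 3. *Jak2* was at 134 and 133 FPKM, a log2 ratio of −0.01, and *Stat5b* at 66.2 and 68.3. In all, 8 of the 9 genes were higher with MAPK13-IN-1 in this pair, or 7 when it was rescaled to a median log2 ratio of 0, which turned *Stat5b* to −0.012 and moved *Jak2* to −0.07 and *Jak3* to 0.08. Over the 10448 genes above 1 FPKM in both libraries, 54.3% were higher and the median log2 ratio was 0.05, on the log2(FPKM + 1) scale. The kit, the platform text and the labelled conditions differ between this pair and the other libraries and cannot be told apart, and the difference was not tested.

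**Figure D2:**
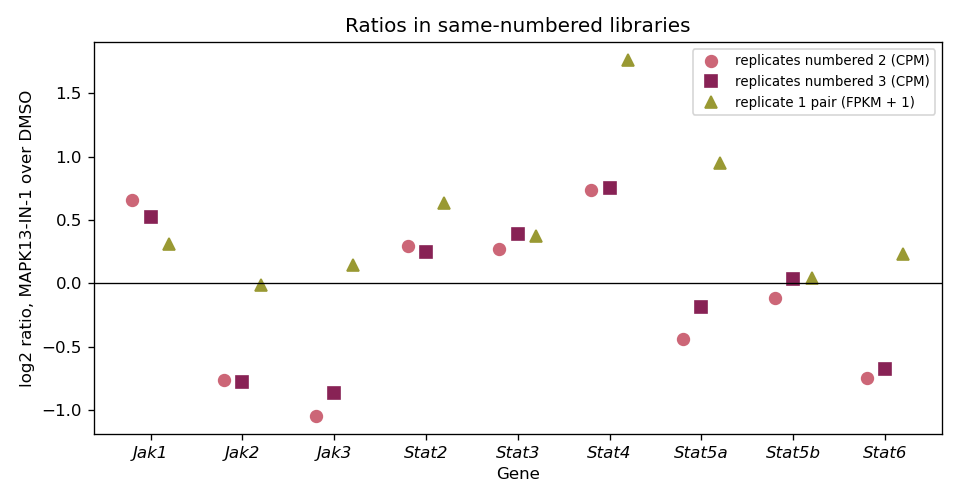
Log2 ratio of MAPK13-IN-1 over DMSO for each gene in libraries that share a replicate number: circles and squares are CPM ratios for numbers 2 and 3, triangles are (FPKM + 1) ratios of the replicate 1 pair. *Jak3*, *Stat5a* and *Stat6* lie below 0 for numbers 2 and 3 and above 0, at 0.14, 0.95 and 0.23, in the replicate 1 pair.

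*Mapk13*, whose product the compound inhibits, was a low gene. Its raw counts were 79 and 74 with DMSO and 21 and 51 with MAPK13-IN-1, so the groups did not overlap. The fitted log2 fold change came to −1.47 with a standard error of 0.363 (edgeR quasi-likelihood fit, Benjamini-Hochberg adjusted p = 0.00490). It was −0.94 without MAPK13-IN-1 replicate 2 and −2.29 without MAPK13-IN-1 replicate 3. In the replicate 1 pair it was listed at 0.191 FPKM with DMSO and 3.28 with MAPK13-IN-1, the opposite direction.

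Around the kinases and factors, most of the tested cytokine ligands fell. Of 21 ligand genes 17 were tested, and 12 were lower and 2 higher, with a median log2 fold change of −1.07 against 0.01 over all genes tested. That is 70.6% and 11.8% of those tested, against 32.3% lower and 31.5% higher over all genes. This list and those below were chosen with earlier results of these data known, so their shares are descriptions. *Il13*, a T helper 2 cytokine, had 735 and 869 counts with DMSO and 36 and 49 with MAPK13-IN-1 (log2 fold change −4.62, standard error 0.165). *Il4*, which signals through STAT6, had 240 and 229 counts with DMSO and 11 and 12 with MAPK13-IN-1 (−4.72, standard error 0.239). *Il15*, a cytokine that shares receptor chains with interleukin-2, went up from 31 and 41 counts to 380 and 310 (2.87, standard error 0.197). In the replicate 1 pair the median log2 ratio of the tested ligands was above 0, at 0.75. *Il4* was lower there, at 28.9 and 13.1 FPKM, while *Il13* was higher, at 16.5 and 39.9.

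Of 27 receptor genes, all tested, 13 were lower and 6 higher (48.1% and 22.2%), with a median of −0.45. Over all genes tested the shares were 32.3% and 31.5%. *Il12rb1*, a chain of the interleukin-12 and interleukin-23 receptors, fell from 467 and 477 CPM to 149 and 176 CPM (log2 fold change −1.54, standard error 0.0744). *Il2ra*, the alpha chain of the high-affinity interleukin-2 receptor, was at 963 CPM in both DMSO libraries and at 368 and 430 CPM with MAPK13-IN-1 (−1.27, standard error 0.0688). *Il12rb2*, the other interleukin-12 receptor chain, fell from 110 and 119 CPM to 50.9 and 53.1 CPM (−1.14, standard error 0.0689). All 3 had groups that did not overlap. For replicate 1 the receptors had a median log2 ratio of 0.12, with *Il12rb1* and *Il2ra* lower (143 and 93.1 FPKM, 384 and 237 FPKM) and *Il12rb2* higher (12.4 and 29.4 FPKM) with the inhibitor. The number of receptors higher was 3 without DMSO replicate 2, and also 3 without DMSO replicate 3.

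Of 18 inhibitors of the pathway, 6 were lower and 7 higher (33.3% and 38.9%), close to the shares of all genes tested (32.3% and 31.5%), with a median of −0.04. *Socs1*, a feedback inhibitor of Janus kinases, fell from 92.7 and 103 CPM to 35.2 and 39.8 CPM (log2 fold change −1.38, standard error 0.0836). *Cish*, a SOCS family member induced by STAT5, fell from 382 and 403 CPM to 135 and 165 CPM (−1.39, standard error 0.0847). *Ptpn1*, a tyrosine phosphatase that acts on JAK2, fell from 287 and 296 CPM to 211 and 224 CPM (−0.42, standard error 0.0556). All 3 were higher with the inhibitor in the replicate 1 pair, *Socs1* at 71.9 and 79.1 FPKM, *Cish* at 146 and 161 and *Ptpn1* at 53.8 and 72.8, and the list's median log2 ratio there was 0.15. A list of 9 partners and cofactors holds cofactors of STAT proteins and also *Stam*, *Stam2*, *Sh2b1* and *Cdc37*, known as adaptors or chaperones of Janus kinases. Of these 9, 4 were higher and 1 lower (44.4% and 11.1%, against 31.5% and 32.3% of all genes tested), with a median of −0.04. The adaptor *Stam* was at 23.5 CPM in both DMSO libraries and at 44.4 and 41.8 CPM with MAPK13-IN-1 (0.88, standard error 0.0837). The acetyltransferase *Crebbp* rose from 107 and 110 CPM to 169 and 149 CPM (0.55, standard error 0.0702), and *Stam2* from 29.1 and 27.5 CPM to 46.7 and 38.2 CPM (0.58, standard error 0.104). The partners had a median log2 ratio of 0.07 in replicate 1.

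**Figure D3:**
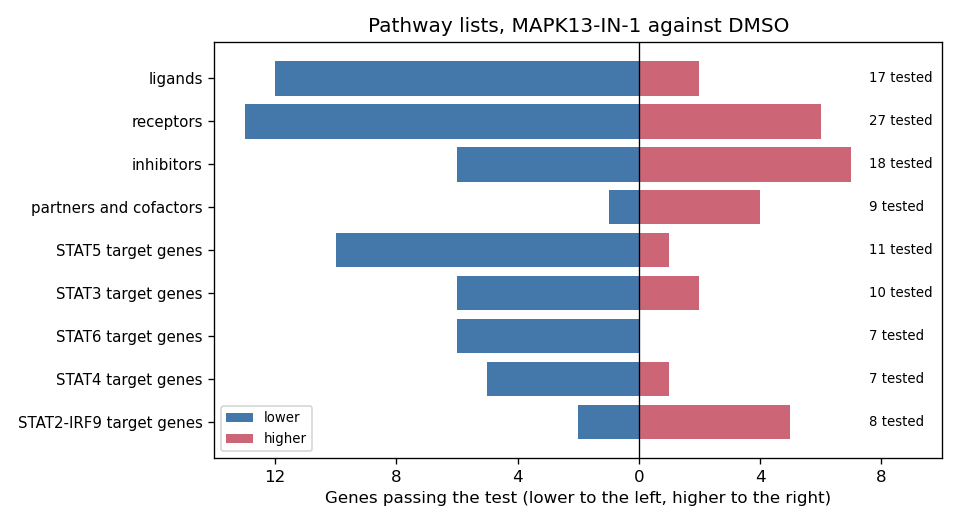
Number of genes of each pathway list that passed the edgeR quasi-likelihood test, lower with MAPK13-IN-1 to the left and higher to the right, with the number tested beside each bar. Ligands (12 lower, 2 higher) and STAT5 target genes (10 lower, 1 higher) lie mostly to the left, and STAT2-IRF9 target genes (2 lower, 5 higher) mostly to the right. Over all genes tested, 32.3% were lower and 31.5% higher.

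Among genes known as STAT5 targets, 10 of 11 were lower and 1 was higher, with a median log2 fold change of −0.97. These shares, 90.9% and 9.09%, stand against 32.3% and 31.5% of all genes tested, in a list chosen with earlier results known. *Bcl2*, an inhibitor of apoptosis, fell from 429 and 441 CPM to 152 and 165 CPM (−1.46, standard error 0.0594). *Pim1*, a serine/threonine kinase, fell from 551 and 617 CPM to 231 and 262 CPM (−1.25, standard error 0.0739), and *Il2ra* and *Cish*, given above, are on this list too. The gene that rose, named after its values were seen, was *Bcl2l1* (0.19, standard error 0.0530), and no gene of the list was higher at the threshold without DMSO replicate 2 or without DMSO replicate 3. In the replicate 1 pair the median log2 ratio of the list was 0.22, with *Bcl2* lower (53.2 and 24.5 FPKM) and *Pim1* higher (159 and 185 FPKM).

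Of 7 STAT6 target genes, 6 were lower and 0 higher in the edgeR fit, with a median of −2.91. The share lower was 85.7%, against 32.3% of all genes tested. The number higher was also 0 at an unadjusted p under 0.05 and with DESeq2. *Il4i1*, an amino acid oxidase, fell from 72.6 and 79.4 CPM to 8.45 and 10.4 CPM (−3.02, standard error 0.107). *Il13* and *Il4*, given among the ligands, are on this list as well, so the counts of the lists are not independent. In the replicate 1 pair *Il4i1* was at 7.36 FPKM with DMSO and 34.9 with MAPK13-IN-1, again the opposite direction, and the list's median log2 ratio was 0.12.

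Of 10 STAT3 target genes, 6 were lower and 2 higher, with a median of −0.42. *Maf*, a transcription factor, fell from 36.5 and 39.6 CPM to 7.92 and 7.79 CPM (−2.28, standard error 0.102), and *Junb*, of the AP-1 family, from 1070 and 1001 CPM to 561 and 623 CPM (−0.81, standard error 0.0606). *Rora*, a nuclear receptor of T helper 17 cells, rose from 27.9 and 26.0 CPM to 91.1 and 85.6 CPM (1.71, standard error 0.0768). Leaving out DMSO replicate 2, or DMSO replicate 3, left 1 higher. The STAT3 list had a median log2 ratio of 0.58 in replicate 1, the opposite direction. Of the 3 genes named, *Junb* went against the count libraries there (220 and 305 FPKM), while *Maf* was lower (27.5 and 24.2 FPKM) and *Rora* higher (1.76 and 5.29 FPKM) in both kinds of library. Of 7 STAT4 target genes, 5 were lower and 1 higher (71.4% and 14.3%, against 32.3% and 31.5% of all genes tested), with a median of −1.03. *Furin*, a protease, fell from 606 and 644 CPM to 238 and 267 CPM (−1.31, standard error 0.0651), and *Il18rap*, a chain of the interleukin-18 receptor, rose from 7.79 and 7.21 CPM to 20.8 and 17.9 CPM (1.37, standard error 0.126). The STAT4 list was also above 0 in replicate 1, with a median log2 ratio of 1.18 and *Furin* higher with the inhibitor (24.3 and 66.8 FPKM). *Il18rap*, at 0.714 and 2.39 FPKM, was higher in both kinds of library.

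STAT2-IRF9 target genes, induced by type I interferon, had the highest median of the 9 pathway lists, 0.43, and a median of 0.96 for the log2 ratios of the replicate 1 pair. Of the 8 tested of 9, 5 were higher and 2 lower (62.5% and 25.0%, against 31.5% and 32.3% of all genes tested). *Ifit3* had 20 and 13 counts with DMSO and 458 and 211 with MAPK13-IN-1 (3.93, standard error 0.405), and *Ifit1* had 53 and 37 with DMSO and 220 and 131 with MAPK13-IN-1 (1.56, standard error 0.287). *Irf7*, a transcription factor of the same response, fell from 147 and 172 counts to 81 and 57 (−1.60, standard error 0.209). These are low counts, and the treated libraries differed widely from each other. Leaving out DMSO replicate 2 left 3 higher, and leaving out DMSO replicate 3 left 2.

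The genes whose pattern over the 4 count libraries was most like that of *Stat4* were *Ric1*, *Siglecg* and *Ccdc127*, with root mean square differences of centred log2 CPM of 0.00741, 0.00975 and 0.0103. For *Jak2* they were *Arhgef1*, *2310033P09Rik* and *Ubqln4*, at 0.00493, 0.00783 and 0.00861. *Stat4* and *Jak2* had the smallest p among the genes that rose and fell. With 4 libraries in 2 groups, likeness is set mostly by the size of the group difference.

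Markers of other cells moved between the groups and between the kinds of library. Beside the marker counts below, 32.3% of all genes tested were lower and 31.5% higher. All 7 tested CD4 T cell markers were present, with *Cd4* itself at 275 and 276 CPM (TMM) with DMSO and 267 and 283 CPM with MAPK13-IN-1, where the groups overlapped, and 6 of the 7 were lower with MAPK13-IN-1 and 0 higher by the edgeR test (0 also at an unadjusted p under 0.05). Their summed level by library totals was 1438 and 1453 CPM with DMSO and 847 and 969 CPM with MAPK13-IN-1, and per kb of exon the most abundant was *Cd5* with DMSO (82.9 and 85.1 CPM per kb) and *Cd4* with MAPK13-IN-1 (69.4 and 73.0 CPM per kb). B cell markers were also high: 10 of 12 were in the matrix, 7 were higher and 2 lower, and their sum was 1095 and 1069 CPM with DMSO and 1375 and 1386 CPM with MAPK13-IN-1. Per kb of exon *Cd79b* was the most abundant in all 4 count libraries (123 and 126 CPM per kb with DMSO, 156 and 149 with MAPK13-IN-1), and no B cell marker of the matrix was at 0. In replicate 1 the B cell markers summed to 52.3 FPKM with DMSO and 36.5 with MAPK13-IN-1, and the CD4 T cell markers to 934 and 1007 FPKM, led by *Cd5* with DMSO (262 FPKM) and by *Thy1* with MAPK13-IN-1 (213 FPKM).

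Of 9 tested myeloid markers 7 were higher and 1 lower, and their sum was 74.6 and 67.6 CPM with DMSO and 118 and 116 CPM with MAPK13-IN-1, with *Mpeg1* the most abundant per kb of exon with DMSO and *Cd68* with MAPK13-IN-1 and in both replicate 1 libraries. Of 7 tested erythroid markers 6 were higher, and their sum was 7.52 and 7.20 CPM with DMSO and 94.4 and 67.1 CPM with MAPK13-IN-1, with *Hbb-bs* the most abundant per kb of exon in all 4 count libraries. CD8 T cell markers summed to 11.2 and 10.4 CPM with DMSO and 5.76 and 8.15 CPM with MAPK13-IN-1, with both genes lower and *Cd8b1* the more abundant per kb of exon. Neutrophil and NK cell markers each summed to under 3 CPM in every count library, with *S100a9* and *Klra8* at 0. The replicate 1 pair moved the other way for CD8 T cell markers (3.49 FPKM with DMSO, 8.39 with MAPK13-IN-1), rose for NK cell markers (0.645 to 4.4 FPKM, most of it *Eomes*), and moved the same way for myeloid (5.09 to 15.6 FPKM) and erythroid markers (0.931 to 1.94 FPKM). The study's methods name a CD4 T cell isolation kit for splenic cells, a step meant to remove other cell types. The part of other cells in the results above was not tested.

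On chromosome 11 (GRCm38, GENCODE M21), *Stat5b*, *Stat5a* and *Stat3* lie side by side. *Stat5b* is at chr11:100780731-100850724 on the minus strand, *Stat5a* at chr11:100859351-100885169 on the plus strand and *Stat3* at chr11:100885098-100939540 on the minus strand. The 3 neighbours did not move together: *Stat3* rose, *Stat5a* fell and *Stat5b* did not pass. The ends of *Stat5a* and *Stat3* overlap by 72 bases on opposite strands. That is 1.01% of the exon length of *Stat5a*, and whether the counting used strand is not given in the sources used here, so reads there cannot be assigned. *Insl3* shares 404 exon bases (7.55%) with *Jak3* on the same strand, and had 127, 155, 68 and 73 counts in DMSO replicates 2 and 3 and MAPK13-IN-1 replicates 2 and 3, beside 8942 to 14210 for *Jak3*. *Stat4* shares 1033 exon bases (26.7%) with the annotated gene *Gm28177* on the same strand, which was not analysed here as a gene of its own, and how reads in the shared bases were counted is not given. *Stat6* shares 40 exon bases (0.909%) with *Nab2* on the opposite strand, and *Nab2* had 2830 and 3005 counts with DMSO and 695 and 756 with MAPK13-IN-1.

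**Figure D4:**
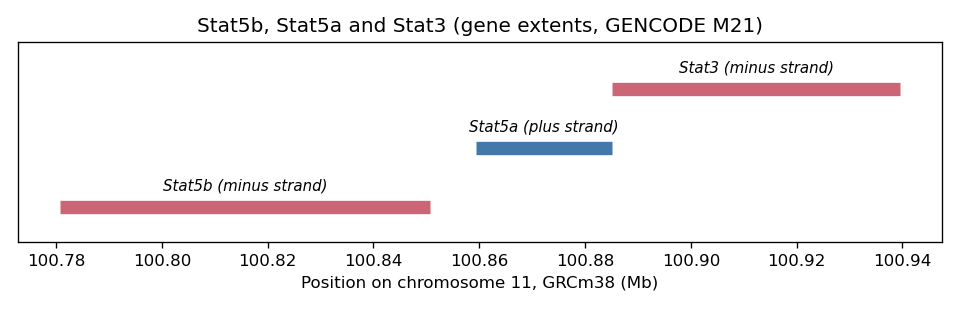
Map of the extents of *Stat5b*, *Stat5a* and *Stat3* on chromosome 11 in GRCm38 (x axis, Mb), drawn to scale, with the strand beside each name. The *Stat5b* and *Stat5a* genes are 8626 bases apart and the ends of *Stat5a* and *Stat3* overlap by 72 bases.

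Promoter windows of 300 bases (250 before to 50 after the start, RefSeq, GRCm38.p6) were present for all 9 genes, 12 windows in all. They were searched on both strands for 12 motifs, and what is printed was chosen after the matches were seen. The interferon-stimulated response element type GAAANNGAAA, held by 3.44% of all 32851 windows, was in 2 of the 12. These were a window of *Stat2* and a window of *Stat4*, both genes that rose. For *Stat4* it was a window inside the gene, and the window at the annotated gene start (chr1:51987148) held no match. The STAT6-type spacing TTCNNNNGAA, in 6.95% of all windows, was in 1, of *Stat2*, and the gamma-activated site TTCNNNGAA, in 8.30%, was in 0. The pieces that hold GAAANNGAAA or its reverse complement, in capitals, are shown because this motif, the rarer of those that both windows hold, was in no other of the 12; neither piece overlaps an annotated exon in GENCODE M21. They lie at chr10:128270256-128270315 and chr1:52008123-52008182, both on the plus strand.
*Stat2*: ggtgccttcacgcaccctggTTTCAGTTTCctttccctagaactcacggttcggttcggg
*Stat4*: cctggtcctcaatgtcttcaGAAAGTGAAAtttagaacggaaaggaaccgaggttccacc
Of the other 9 motifs, the 12 windows held GGGCGG in 7 (35.7% of all windows), GGAAA in 8 (61.3%), CCAAT in 4 (37.4%), CTTTGA in 1 (16.0%) and TGACGTCA in 1 (1.79%). GGGANNTTCC (1.47% of all windows), TGANTCA (7.81%), CACGTG (7.15%) and CCGGAAGT (3.89%) were in 0 of the 12. Matches of GGAAA can share bases with matches of other motifs, as in the *Stat2* window. A match is a description of these letters only.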

How the data were processed

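The authors deposited a matrix of raw counts per gene for replicates 2 and 3 of each group and a table for each replicate 1 library, whose values, as far as they show, are FPKM made by the authors. The submitters' processing notes name fastp 0.21.0, HISAT2 2.1.0, StringTie 2.1.5 and DESeq2 1.30.1 with mm10 for the former, and FastQC and HISAT2 with GRCm38 and mm10 both named for the latter.

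Counts were tested in R 4.3.3 with edgeR 4.0.16 (TMM normalization, filterByExpr with a minimum count of 10 and a minimum total of 15, quasi-likelihood test, Benjamini-Hochberg adjustment over all genes, threshold 0.05), with no replicate block. The steps were checked on simulated counts, where the larger fold size (4-fold) was recovered and the smaller (2-fold) fell just short of the minimum first set for that check, with the misses at low counts. The minimum was kept, but the criterion that stops the scripts was changed after that miss, so that it now covers only the larger fold size and the false calls. The simulation changed few genes and gave all genes and both groups the same spread. In the data 63.8% of genes passed and the treated libraries differed more from each other, so the check does not cover such data. Levels per length used the union of all GENCODE M21 exons of a gene, which can be longer than a single transcript. Ratios of the replicate 1 pair used a pseudocount of 1.

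The genes named were the 9 JAK and STAT genes, the 3 with the smallest p in each pathway list, the 3 most like *Stat4* and *Jak2* in pattern (mean CPM of at least 10), and *Mapk13*; others are named after their values were seen. The members and lists were chosen with earlier results of these data known. Alternatives were RLE and upper quartile factors, library totals, other count filters, a replicate block, DESeq2 1.42.0, leaving out each library, and for the replicate 1 pair a pseudocount of 0.1 and rescaling to a median of 0.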

Additional observations from a re-analysis of the deposited data

Results flagged for a closer look

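Of the 38 genes named by rule that passed the test in the count libraries, 17 had a ratio in the replicate 1 pair that went against both same-numbered pairs of the count libraries, among them 3 of the 8 JAK and STAT genes that passed. *Jak3* had a log2 ratio of 0.14 in the replicate 1 pair, against −1.05 and −0.86 for the libraries numbered 2 and 3. *Stat5a* had 0.95, against −0.44 and −0.18, and *Stat6* had 0.23, against −0.75 and −0.68.

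The other 14 included *Mapk13*, a low gene, at 1.84 in the replicate 1 pair. Of genes lower in the count libraries, the replicate 1 log2 ratio was 1.23 for *Il13*, 1.18 for *Il12rb2*, 0.136 for *Socs1*, 0.140 for *Cish*, 0.43 for *Ptpn1*, 0.22 for *Pim1*, 0.47 for *Junb*, 2.1 for *Il4i1*, 1.42 for *Furin*, 1.09 for *Irf7*, 0.069 for *2310033P09Rik* and 0.09 for *Ubqln4*. *Crebbp*, higher in the count libraries, was at −0.0029, close to no difference. The replicate 1 values are on the log2(FPKM + 1) scale and come from 1 library a group, and the differences were not tested. The share of opposite ratios over all genes that passed is not given here, so 17 of 38 is no trait of these genes.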

How the results depend on the processing

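Over 11 alternative settings the log2 fold changes of *Jak1*, *Jak2*, *Jak3*, *Stat3*, *Stat4* and *Stat6* kept their sign. So did those of *Stat2* (0.22 to 0.39) and *Stat5a* (−0.47 to −0.16). In the settings that kept all 4 count libraries, these genes passed each time, except *Stat5a* with library totals (−0.18). *Stat5b* passed in none of those settings. It changed sign with upper quartile factors (0.040), library totals (0.085) and at least 10 counts in every library (0.0048). Without MAPK13-IN-1 replicate 2 it was 0.014, and without MAPK13-IN-1 replicate 3 it was −0.10. In the replicate 1 pair, rescaled to a median of 0, the ratio of *Stat5b* was −0.012. Library totals moved the median of all genes to 0.14, and no filter on low counts to 0.16. Among all genes that passed, 58.9% were higher with library totals and 55.7% with upper quartile factors, against 49.4% in the main setting. When libraries were left out singly, the number higher was 3 to 6 for receptors, 0 to 1 for STAT5 targets, 1 to 2 for STAT3 targets and 2 to 5 for STAT2-IRF9 targets; with DESeq2 it was 1 for STAT3 targets. The cause was not tested. A library left out leaves 1 in its group, assumed to vary like the other group. The groups did not vary alike: the mean chi-square per gene between replicates 2 and 3 was 9.8 with MAPK13-IN-1 and 3.07 with DMSO. Passing with a library left out is therefore no check on the calls.

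The replicate numbers 2 and 3 are shared by both groups, but the labels do not say that they pair libraries, and the differences between the numbers were uncorrelated between groups (−0.00641, across genes). With the number as a replicate block, 10645 genes passed in place of 10374, with 4 members higher and 4 lower as before. Low counts limit *Mapk13*, *Ifit1* and *Ifit3*.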
